A study of Mus musculus with 24 samples.

Results

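The genes described here are 33 immediate early and heat shock genes that are known to be induced when a tissue is taken apart into single cells. They were the 33 rows of the deposited table of normalized counts, out of 27179 rows, whose symbol was on a list of such genes. The rule uses no measured value, but the list was chosen with earlier results of these data known. All 33 had a normalized count of at least 10 in at least 3 libraries, the condition for being tested, as did 14387 genes in all. The lowest value of any of the 33 in any library was 41.9 and the highest was 136953, so each was detected in every library.

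The libraries were bulk RNA sequencing libraries of cells carrying the surface receptor PDGFRb, sorted by flow cytometry from white adipose tissue of C57BL/6 mice. Gonadal tissue gave cells labelled APC and cells labelled FIP, and inguinal tissue gave APC split into DPP4_neg and DPP4_pos cells, that is without and with the surface peptidase DPP4. Each of these 4 populations was taken from females (F) and from males (M), with 3 libraries in each of the 8 groups, and no allele, diet, agent or age is named in the labels for any group. The labels do not say whether libraries of a group came from separate animals or pools, so the p-values below reflect only how much the libraries of a group varied, and that variation may be technical. No library of undissociated tissue or unsorted cells was analysed here, so the levels below have no such baseline. Because the gonadal and inguinal cells were also sorted into differently named populations, depot and sort cannot be told apart in any comparison between depots.

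Immediate early genes are transcribed within minutes of a stimulus, from factors already present in the cell and without new protein synthesis. Growth factors, stress and membrane depolarization activate MAP kinases and the kinases of CREB, which act through the serum response factor with its ETS partners at CArG boxes and through CREB at cyclic AMP response elements (CREs). The first products are transcription factors: Fos and Jun proteins, which pair as AP-1, the EGR zinc fingers, the NR4A orphan nuclear receptors and some KLF factors. A slower layer of products ends the response: DUSP phosphatases inactivate MAP kinases, Zfp36 leads messages with AU-rich elements to decay, and Socs3 blocks JAK signalling. Heat shock genes are driven by a separate factor, HSF1, when proteins unfold. Enzymatic digestion and sorting are known to switch on both programmes in many cell types, so their RNA is a common concern in sorted cells.

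Stretches just upstream of 6 start sites are shown because they hold, in capitals, a CRE (Dusp1 and Btg2), CArG boxes (Dusp5), the TATA box of the core promoter (Fos) or heat shock units (Hspa1a and Hspa1b). They were taken from RefSeq windows of GRCm38.p6 and are written 5′ to 3′ on the gene's own strand. Each ends before the first annotated exon base of the gene within its window. The annotated span of Dusp1, chr17:26505590-26562128, reaches further upstream, so its stretch lies inside the gene as annotated. In Fos, chr12:85473710-85473889 on the plus strand, the capitals mark a TATA box 33 to 28 bases upstream of the start site. In Dusp1, chr17:26508520-26508652 on the minus strand, and Btg2, chr1:134079156-134079335 on the minus strand, they mark a full CRE, 143 to 136 and 166 to 159 bases upstream. In Dusp5, chr19:53528965-53529108 on the plus strand, they mark 2 adjoining CArG boxes, 82 to 73 and 72 to 63 bases upstream. In Hspa1a, chr17:34972157-34972336, and Hspa1b, chr17:34959239-34959418, both on the minus strand, they mark a pair of heat shock units 104 to 97 bases upstream.
Fos: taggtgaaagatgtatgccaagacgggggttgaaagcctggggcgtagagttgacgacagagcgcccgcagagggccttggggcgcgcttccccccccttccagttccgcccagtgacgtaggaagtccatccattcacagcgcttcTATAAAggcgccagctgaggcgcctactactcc
Dusp1: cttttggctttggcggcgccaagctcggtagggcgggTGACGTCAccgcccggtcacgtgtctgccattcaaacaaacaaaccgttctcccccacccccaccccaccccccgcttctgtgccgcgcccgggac
Btg2: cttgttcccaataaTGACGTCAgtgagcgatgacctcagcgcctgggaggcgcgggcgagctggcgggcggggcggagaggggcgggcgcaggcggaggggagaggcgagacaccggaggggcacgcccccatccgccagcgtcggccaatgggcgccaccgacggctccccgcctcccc
Dusp5: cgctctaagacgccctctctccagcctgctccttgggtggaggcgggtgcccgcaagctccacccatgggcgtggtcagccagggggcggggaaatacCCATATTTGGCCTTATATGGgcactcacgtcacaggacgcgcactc
Hspa1a: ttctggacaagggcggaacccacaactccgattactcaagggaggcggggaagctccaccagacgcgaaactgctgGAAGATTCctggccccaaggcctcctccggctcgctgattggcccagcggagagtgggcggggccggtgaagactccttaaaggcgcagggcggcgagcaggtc
Hspa1b: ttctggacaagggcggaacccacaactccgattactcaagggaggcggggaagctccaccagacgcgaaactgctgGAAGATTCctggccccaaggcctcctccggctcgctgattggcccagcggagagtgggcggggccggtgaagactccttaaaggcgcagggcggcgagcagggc

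RefSeq windows were held for 28 of the 33 genes, 33 windows in all, and motifs were searched on both strands of the 250 bases upstream of each start site, with overlaps between motifs allowed. Fosl1, Egr1, Egr3, Myc and Ier2 had no window. The CRE, TGACGTCA, lay in 2 of the 33 windows (Dusp1 and Btg2) and in 1.55% of all 32851 windows. The CArG box lay in windows of 3 of the 28 genes, Egr2, Dusp5 and Zfp36, and in 1.47% of all windows. Those were 6 windows, since Egr2 has several, so the 6 need not hold separate sites. The AP-1 site TGANTCA lay in none of the 33 and in 6.75% of all. The pair of heat shock units GAANNTTC lay in windows of Fosl2, Jun, Hspa1a and Hspa1b and in 6.69% of all, while a run of 3 heat shock units lay in none of the 33 and in 0.466% of all. The EGR motif GCGNGGGCG lay in windows of 10 of the genes (Fosb, Fosl2, Nr4a1, Nr4a2, Klf2, Klf4, Zfp36, Socs3, Btg2 and Gadd45b) and in 4.70% of all windows. The TATA box TATAAA lay in windows of Fos, Nr4a2, Btg1 and Gadd45b and in 12.4% of all, the CCAAT box CCAAT in 16 of the 33 windows and 33.9% of all, and the GC box GGGCGG, whose letters overlap the EGR motif, in 27 of the 33 and 32.7% of all. These are matches of letters within a fixed window, and no binding was measured.

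Several of the 33 share sequence with, or overlap, other annotated genes. The transcripts of Hspa1a and Hspa1b shared 1716 stretches of 50 bases, 58.8% of those in Hspa1a and 62.3% of those in Hspa1b, and 247 of their 250 upstream bases were the same, so the split of reads between them is uncertain and their sum is given as well. Exons of Fosl1, Jun, Junb, Jund, Dusp1, Dusp5, Zfp36 and Hspa1a overlap an exon of another annotated gene on the other strand. Whether the counting used strand is not given in the sources used here, so it is not known to which gene reads within the overlaps were counted. No alignments were examined.

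Recovered reads per library ran from 9152470 to 18221692, the lowest in female APC. Pdgfrb, the sorted receptor, was detected in every library (1730 to 6277 normalized counts, read counts divided by a size factor), and Dpp4 averaged 18872 ± 1791 (SD, n = 3) in female and 15439 ± 606 in male DPP4_pos cells against 2496 ± 1565 and 245 ± 11.6 in DPP4_neg cells. The 8 fibroblastic progenitor markers were all detected in every group. The 3 female DPP4_neg libraries stood apart: their 7 epithelial markers, which include Cldn4 and Epcam, summed to 4030, 9707 and 5664 normalized counts in replicates 1, 2 and 3, against 9.86 to 377 in the other 21 libraries, where Krt14 was at 0 in male DPP4_pos and Cdh1 in male FIP. Their 7 mesothelial markers summed to 6805 to 16492, against 35.2 to 1121 elsewhere. That list includes the keratins Krt8, Krt18 and Krt19, and Krt8 alone averaged 4567 ± 2011 in female DPP4_neg. As given below, more of the 7 were lower than higher there against female APC, so the sum does not stand for the whole list. The part of cells with these markers in the results on female DPP4_neg libraries was not tested. The counts over all 4 comparisons and over all libraries are also given without those libraries.

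The 33 genes together took 5.01% ± 0.04 (SD, n = 3) of the reads in female APC and 4.88% to 5.16% in the 3 libraries of male APC. They took 3.24% ± 0.07 in female FIP and 3.64% ± 0.13 in male FIP. In the inguinal cells their share was 1.83% ± 0.27 in female DPP4_neg, 1.99% ± 0.01 in male DPP4_neg, 1.93% ± 0.10 in female DPP4_pos and 1.39% ± 0.04 in male DPP4_pos. Every gonadal library had a larger share than every inguinal library, and within the gonadal depot every APC library had a larger share than every FIP library. In bulk libraries, fewer cells that express a gene and less of its RNA per cell cannot be told apart. Per kilobase of annotated exon, the mean normalized count over the 24 libraries was highest for Jund (17970), Junb (11930), Zfp36 (11652) and Fosb (10200), and lowest for Dusp6 (98.8) and Nr4a2 (53.7).

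**Figure D1:**
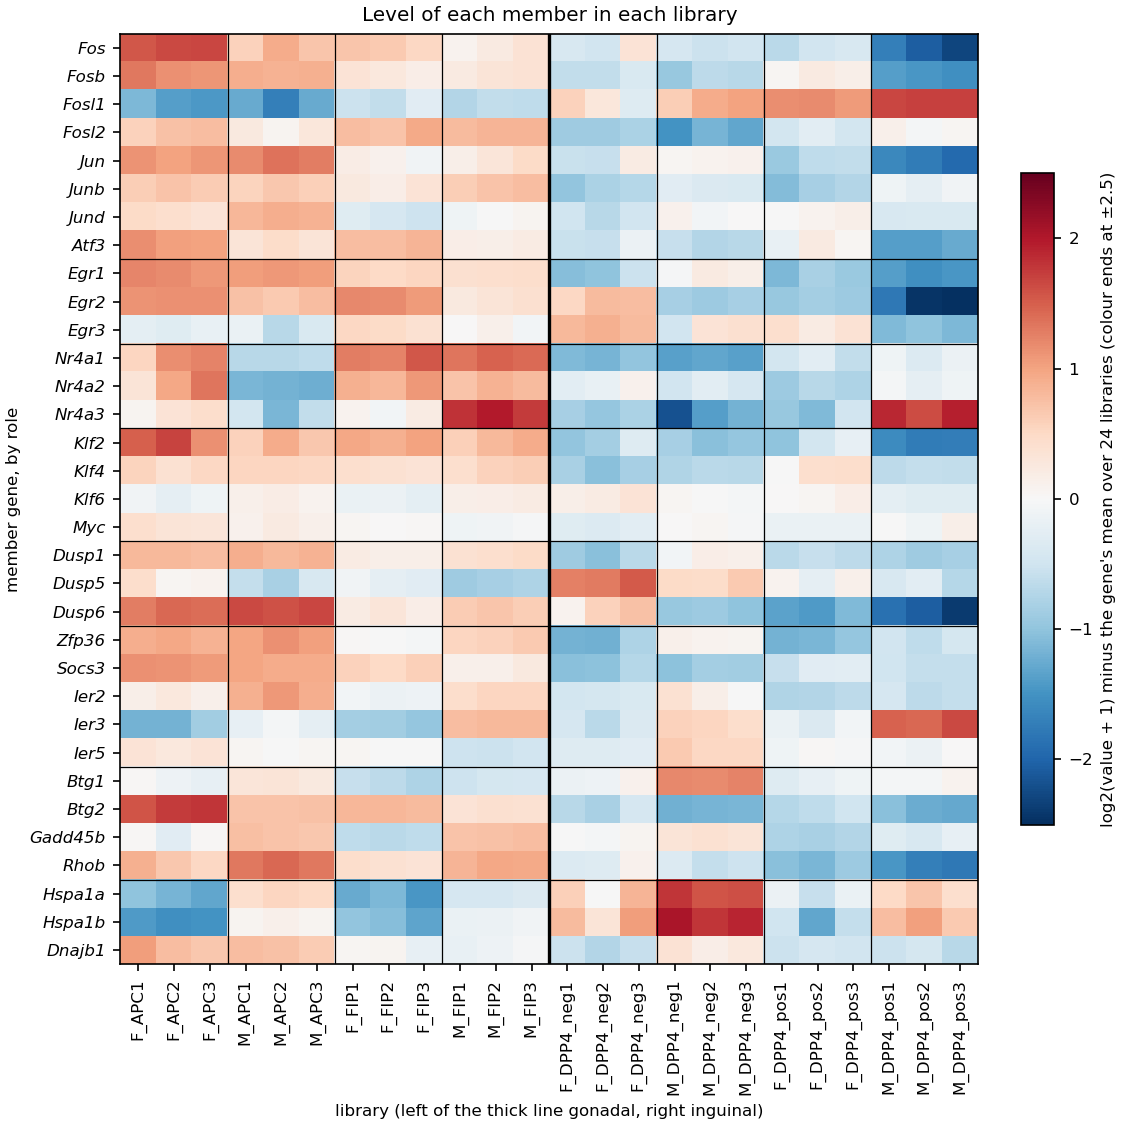
Heat map of the 33 genes (rows, grouped by role) in the 24 libraries (columns); colour is log2(value + 1) minus the gene's mean over all libraries, red above and blue below. Most rows are redder in the 12 gonadal libraries on the left. Going by the median of each depot, Fosl1, Egr3, Klf6, Dusp5, Ier3, Btg1, Hspa1a and Hspa1b are not.

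The depots were compared 4 times, APC with DPP4_neg cells and FIP with DPP4_pos cells in each sex, and these comparisons share no library. A gene was called when limma's adjusted p was under 0.05 over all 14387 genes, and fold changes are on the scale log2(value + 1), with standard errors. In APC against DPP4_neg cells of females, 24 of the 33 were higher and 7 lower in gonadal cells, where 27.0% and 32.4% of all genes were called higher and lower. In males these counts were 22 and 9 of the 33, against 33.3% and 33.1% of all genes. In FIP against DPP4_pos cells they were 20 and 6 in females, against 22.2% and 22.7%, and 24 and 7 in males, against 32.8% and 32.4%. The median log2 fold change of the 33 in these 4 comparisons was 0.99, 0.85, 0.77 and 1.05, where that of all genes tested lay between -0.02 and 0.02.

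Called higher in gonadal cells in all 4 comparisons were 17 of the 33, as were 8.69% of all genes tested: Fos, Fosl2, Jun, Junb, Atf3, Egr1, Egr2, Nr4a1, Klf2, Dusp1, Dusp6, Zfp36, Socs3, Ier2, Btg2, Rhob and Dnajb1. Fosl1, Ier3 and Hspa1a were lower in gonadal cells in all 4, as were 11.3% of all genes. The 17 stayed called without replicate 3 of female DPP4_neg, an alternative chosen after the data were seen. Without all 3 libraries of that group 1 of the 4 comparisons falls away, and over the 3 that remain 17 were higher and 4 lower, with Btg1 added. The shares of all genes called in those 3 were not counted. They can lie between 8.69% and 22.2% for higher and between 11.3% and 22.7% for lower. Junb, Egr1, Klf2, Socs3, Btg2 and Rhob had all 12 gonadal libraries above all 12 inguinal ones, as did 3.02% of all genes. None of the 33 had all gonadal libraries below, as 5.60% of all genes did. Without the 3 female DPP4_neg libraries the 6 became 9, with Fos, Egr2 and Dusp6 added, against 4.74% of all genes, and Fosl1 had all gonadal libraries below, as did 7.54% of all genes. Without replicate 3 of that group alone the counts were 7, with Fos added, and again 1 for Fosl1, against 3.42% and 6.19% of all genes.

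Klf2 is also known as a flow-induced gene of endothelium, and endothelial markers moved with depot as well. All 8 of them were called higher in gonadal cells of males in both comparisons, 7 of 8 in female APC against DPP4_neg, and 6 of 8 in female FIP against DPP4_pos, where 1 was lower. Their summed level was 1399 to 2521 normalized counts in female APC, 2279 to 2770 in male APC, 906 to 1091 in female FIP and 2166 to 2985 in male FIP. It was 796 to 993 in female DPP4_neg, 300 to 552 in male DPP4_neg, 1795 to 1861 in female DPP4_pos and 418 to 480 in male DPP4_pos, so in females FIP lay below DPP4_pos on this sum. The 6 adipocyte markers summed to 571 to 1160 in APC libraries and to at most 312 in all others. Mesothelial markers had medians of 4.87 and 4.06 on the log2 scale in APC over DPP4_neg of females and males, and of 3.94 and 4.58 in FIP over DPP4_pos. Of these 7, 4, 6, 4 and 7 were called higher in gonadal cells and 3, 0, 3 and 0 lower, in the order female APC, male APC, female FIP and male FIP. Of 8 mural markers 3, 4, 5 and 6 were higher and 3, 2, 3 and 2 lower in that order, with medians of 0.12, 0.95, 1.54 and 2.30. Of 12 macrophage markers 1, 4, 2 and 7 were higher and 8, 2, 9 and 1 lower, with medians of -1.34, 0.18, -1.04 and 1.62, so their medians were negative in females and positive in males. The 8 fibroblastic progenitor markers summed to 285446 to 338681 in gonadal and 538710.0 to 952423 in inguinal libraries. The part of these cells in the depot differences was not tested.

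**Figure D2:**
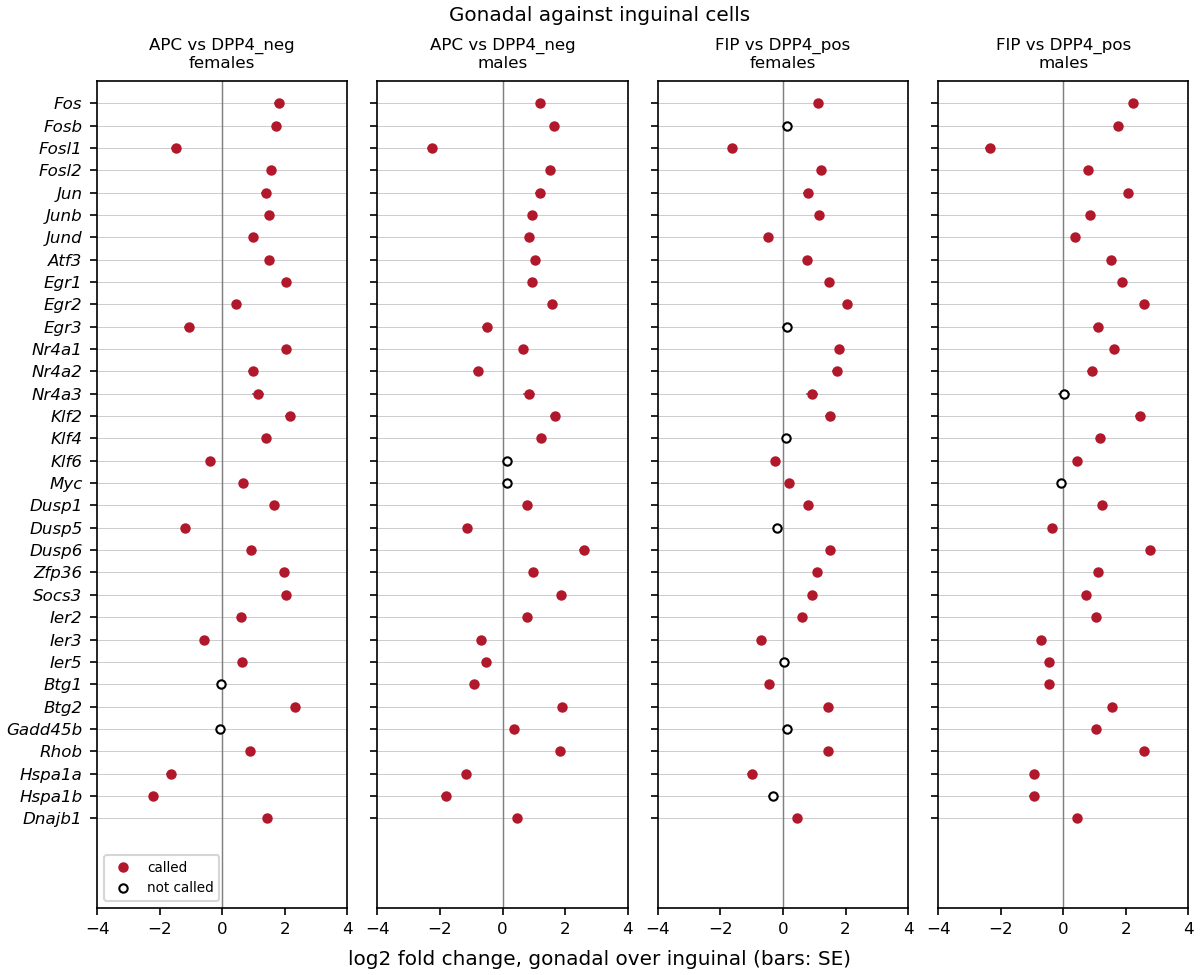
Log2 fold changes of the 33 genes, gonadal over inguinal, in the 4 depot comparisons; points are estimates with SE bars, filled where called at an adjusted p under 0.05. 17 genes lie filled to the right of 0 in all 4 panels, and Fosl1, Ier3 and Hspa1a lie filled to the left in all 4.

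Among the AP-1 and ATF genes, Fos and Jun encode the partners of the classical AP-1 dimer. Fos lay at 16320.2 to 48968 (median 24568) in the 12 gonadal libraries and at 3138 to 19611 (median 11111) in the 12 inguinal ones. The ranges overlapped through replicate 3 of female DPP4_neg, at 19611, and were otherwise apart. Its log2 fold change was 1.80 ± 0.15 and 1.21 ± 0.15 for APC over DPP4_neg in females and males, and 1.13 ± 0.15 and 2.24 ± 0.15 for FIP over DPP4_pos, with adjusted p of 2.84e-10, 1.8e-07, 1.21e-06 and 2.69e-12 from limma. Jun lay at 15986 to 43322 (median 28888) in gonadal and 4423 to 19529.9 (median 11276) in inguinal libraries, with overlapping ranges, and its fold changes ran from 0.79 to 2.08. Junb, a Jun protein that activates more weakly, lay at 28309.9 to 42796 (median 38558) against 11823 to 23740.1 (median 17276), with no overlap and fold changes from 0.84 to 1.48.

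Fosb, a Fos protein with a strong activation domain, was higher in gonadal cells in 3 of the 4 comparisons, and in female FIP over DPP4_pos its log2 fold change was 0.12 ± 0.11 (limma adjusted p 0.374). Jund, the Jun protein with the steadiest expression, was higher in 3 comparisons but lower in female FIP than in female DPP4_pos, at -0.49 ± 0.09. Atf3, a stress-induced factor of the ATF family, lay at 10071 to 20430.3 (median 13982) in gonadal and 3503 to 10590.0 (median 6070.2) in inguinal libraries, overlapping through replicate 2 of female DPP4_pos. Fosl2 was higher in gonadal cells in all 4, from 0.78 to 1.55. Fosl1, which like Fosl2 lacks the activation domains of Fos and accumulates later, went the other way. Fosl1 lay at 177 to 478 (median 307) in gonadal and 464 to 1896 (median 1195) in inguinal libraries, and was lower in gonadal cells, at -1.49 ± 0.15, -2.26 ± 0.15, -1.62 ± 0.15 and -2.36 ± 0.15 in the same order of comparisons as above. The ranges overlapped through replicate 3 of female DPP4_neg, at 464, just under the highest gonadal value.

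Of the EGR factors, Egr1, the main zinc finger product of ERK signalling, lay at 37042 to 65052 (median 49249) in gonadal and 9624 to 32506 (median 14242) in inguinal libraries, without overlap. The highest inguinal values of Egr1 were those of male DPP4_neg, at 27454, 32506 and 31044. Egr2, known for its part in myelination and early fat cell differentiation, was higher in gonadal cells by 0.44 ± 0.12, 1.57 ± 0.12, 2.05 ± 0.12 and 2.59 ± 0.12, the smallest of these in females against DPP4_neg. Egr2 read 1176, 1412 and 1405 in female DPP4_neg but at most 459.9 in the other 9 inguinal libraries. Egr3, a close relative, was lower in APC than in DPP4_neg cells, at -1.07 ± 0.15 in females and -0.50 ± 0.15 in males. The male call ended without replicate 3 of male DPP4_neg. In FIP over DPP4_pos cells Egr3 was higher in males, at 1.10 ± 0.15, while in females it was at 0.13 ± 0.15 (limma adjusted p 0.512).

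Klf2 and Klf4 are Krüppel-like factors, and Klf4 also acts early in fat cell differentiation. Klf2 lay at 3567 to 7792 (median 4593) in gonadal and 719 to 2090.2 (median 1218) in inguinal libraries, without overlap, and its fold changes ran from 1.51 to 2.46. Klf4 was higher in APC than in DPP4_neg cells, at 1.39 ± 0.10 in females and 1.24 ± 0.10 in males, and in FIP than in DPP4_pos cells in males, at 1.16 ± 0.10, but at 0.10 ± 0.10 in females (limma adjusted p 0.396). Female DPP4_pos cells held 21844, 29230.1 and 29600.3 normalized counts of Klf4, of which the last 2 lie inside the gonadal range, 27898 to 33429 (median 31404), and the other 9 inguinal libraries held at most 14436. Klf6 and the growth regulator Myc varied least, with the highest group mean 1.43 and 1.58 times the lowest. Klf6 was lower in gonadal cells of females, at -0.37 ± 0.07 and -0.26 ± 0.07, and higher in male FIP than in male DPP4_pos, at 0.45 ± 0.07. Myc was higher in gonadal cells of females, at 0.66 ± 0.06 and 0.20 ± 0.06, and in males was at 0.14 ± 0.06 and -0.09 ± 0.06, neither of which passed, although the last was called at 0.29 with quantile normalization.

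The NR4A genes were mostly higher in gonadal cells. Nr4a1 was higher in all 4 comparisons, by 2.05 ± 0.12, 0.66 ± 0.12, 1.80 ± 0.12 and 1.61 ± 0.12. Nr4a2 was higher in 3 and lower in male APC than in male DPP4_neg. Nr4a3 was higher in 3, and in male FIP over male DPP4_pos it was at 0.03 ± 0.19 (limma adjusted p 0.918).

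The MAP kinase phosphatases did not move as 1 group. Dusp1, a nuclear phosphatase of p38 and JNK as well as ERK, was higher in gonadal cells by 1.67 ± 0.08, 0.79 ± 0.08, 0.81 ± 0.08 and 1.25 ± 0.08. Dusp6, the cytoplasmic ERK phosphatase, lay at 254 to 715 (median 454) in gonadal and 41.9 to 372 (median 107) in inguinal libraries, overlapping through female DPP4_neg, and was 6.77 times as high in male FIP as in male DPP4_pos cells. Dusp5, the nuclear ERK phosphatase whose upstream stretch with 2 CArG boxes is shown above, was lower in APC than in DPP4_neg cells, at -1.18 ± 0.13 and -1.12 ± 0.13 in females and males. It was lower in male FIP than in male DPP4_pos cells as well, at -0.37 ± 0.13, a call that ended without replicate 2 of male DPP4_pos, and at -0.19 ± 0.13 in females (limma adjusted p 0.224).

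Among the other feedback genes, Zfp36 lay at 34026 to 77984 (median 59821) in gonadal and 15236 to 38589 (median 21512) in inguinal libraries, overlapping through male DPP4_neg, at 38589, 37396 and 36722. Socs3 lay at 20595 to 42064 (median 32207) against 9227 to 15889 (median 12010.0) and Ier2, a small nuclear protein, at 2755 to 6452 (median 3902) against 1814 to 4007 (median 2248), the first without overlap. Ier3, a survival gene induced by NF-kB, was lower in gonadal cells, at -0.59 ± 0.09, -0.69 ± 0.09, -0.69 ± 0.09 and -0.72 ± 0.09, close to the same size in each. Ier5, which helps HSF1 to become active, was higher in female APC than in female DPP4_neg cells, at 0.62 ± 0.07, and lower in male APC than in male DPP4_neg cells, at -0.53 ± 0.07. In FIP over DPP4_pos, Ier5 was lower in males, at -0.45 ± 0.07, and at 0.04 ± 0.07 in females without passing.

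Btg2, an antiproliferative gene that promotes deadenylation of messages and whose CRE is shown above, had the largest gonadal excess of the 33 in female APC over DPP4_neg. Btg2 lay at 7444 to 20248 (median 10001) in gonadal and 2441 to 4402 (median 3126) in inguinal libraries, without overlap, with fold changes of 2.34 ± 0.08, 1.89 ± 0.08, 1.44 ± 0.08 and 1.56 ± 0.08. Its relative Btg1 was lower in gonadal cells in 3 comparisons and at -0.04 ± 0.08 in female APC over DPP4_neg (limma adjusted p 0.641). Rhob lay at 7158 to 15286 (median 10295) against 1641 to 6052 (median 3370.1), also without overlap. Gadd45b, a stress gene that activates a MAP kinase kinase kinase, was higher in gonadal cells of males, at 0.36 ± 0.07 and 1.05 ± 0.07, and at -0.08 ± 0.07 and 0.13 ± 0.07 in females, where neither passed the test.

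The heat shock genes split. Dnajb1, the co-chaperone that stimulates the inducible HSP70 chaperones, was higher in gonadal cells in all 4 comparisons, from 0.44 to 1.45. Hspa1a and Hspa1b, which encode those inducible chaperones, were lower in gonadal cells in 4 and in 3 of the comparisons. Their sum averaged 1788 ± 112 (SD, n = 3) in female APC, 5428 ± 156 in male APC, 1999 ± 220 in female FIP and 3848 ± 106 in male FIP. It averaged 7159 ± 1847 in female DPP4_neg, 15931 ± 1376 in male DPP4_neg, 3109 ± 686 in female DPP4_pos and 7421 ± 889 in male DPP4_pos. Within each sex both inguinal groups thus had a higher mean sum than both gonadal groups. Hspa1b alone was at -2.20 ± 0.16 and -1.82 ± 0.16 for APC over DPP4_neg and at -0.94 ± 0.16 for FIP over DPP4_pos in males, and at -0.33 ± 0.16 in females, which did not pass (limma adjusted p 0.0914).

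**Figure D3:**
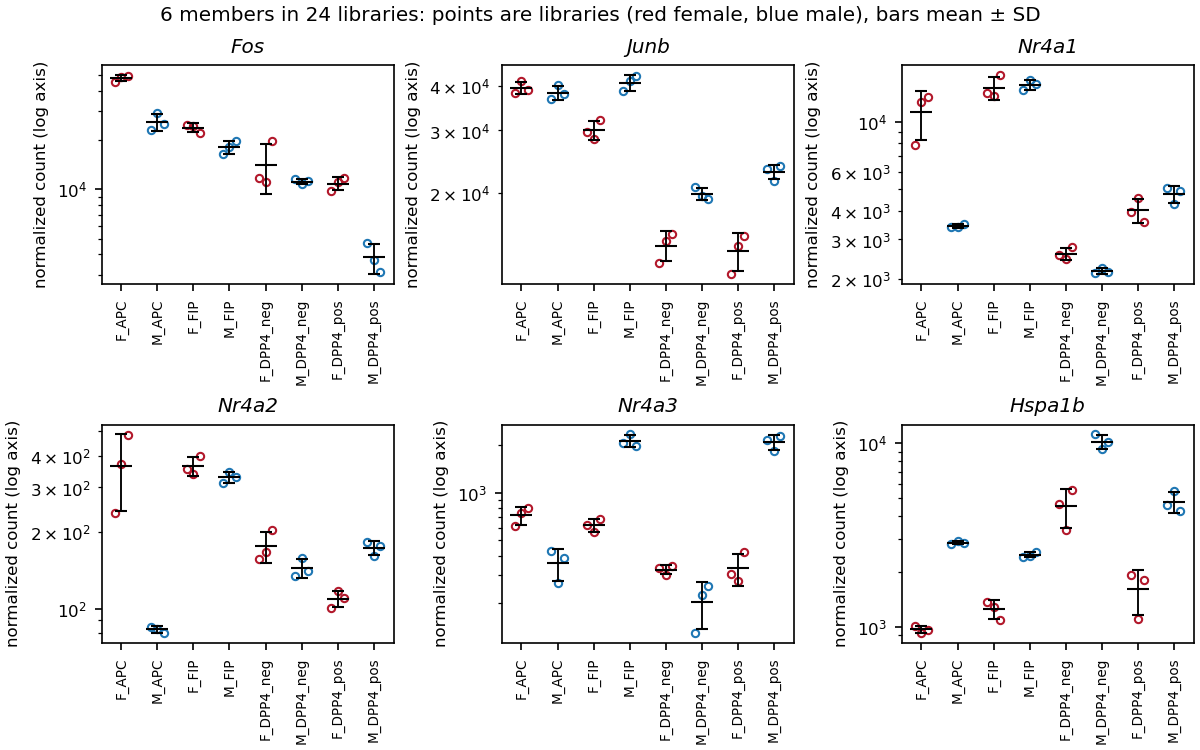
Normalized counts of 6 of the genes in every library, on log axes, with group means and SD (n = 3); red points are female and blue points male libraries. Junb is at least 28309.9 in all gonadal libraries and at most 23740.1 in all inguinal ones, Nr4a3 is highest in male FIP and male DPP4_pos cells, and Hspa1b is highest in male DPP4_neg cells.

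Within the gonadal depot, FIP cells had lower levels of most of the 33 than APC cells. In females 3 of the 33 were higher and 21 lower in FIP, where 21.4% and 18.2% of all genes were called higher and lower. In males 7 were higher and 18 lower, against 18.9% and 18.1%. Lower in both sexes were 16 genes: Fos, Fosb, Jun, Jund, Egr1, Myc, Dusp1, Dusp6, Zfp36, Socs3, Ier2, Ier5, Btg1, Btg2, Rhob and Dnajb1. Higher in both were Fosl1, Egr3 and Nr4a1. The shares of all genes called in both sexes were not counted, and can be at most 18.1% lower and 18.9% higher. The median log2 fold change of the 33 was -0.32 in females and -0.34 in males, against 0.00 and -0.03 for all genes. Some markers of other cell types were also lower in FIP, and none of those in the next sentence was called higher. In females 11 of 12 macrophage, 7 of 8 mural, 6 of 8 endothelial, 7 of 7 mesothelial and 5 of the 5 adipocyte markers tested were called lower, and in males 2, 4, 0, 0 and 4 were. Epithelial markers summed to 52.3 to 205 in female APC and 26.9 to 32.4 in female FIP. In males they went the other way, at 24.7 to 27.2 in APC and 55.3 to 61.4 in FIP. The part of those cells in these differences was not tested.

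Fos read 45172, 48679 and 48968 in female APC and 24836, 24300.5 and 22033 in female FIP, with no overlap and a log2 fold change of -1.01 ± 0.15 (limma adjusted p 8.5e-06). In males Fos read 23052, 29190.2 and 25106 in APC and 16320.2, 17992 and 19796 in FIP, again without overlap, at -0.51 ± 0.15 (limma adjusted p 0.00979). Jun fell by a like amount in both sexes, at -1.01 ± 0.14 and -0.95 ± 0.14, as did Dusp6, at -1.15 ± 0.13 and -0.98 ± 0.13, and Jund, at -0.84 ± 0.09 and -0.89 ± 0.09. Dnajb1 was lower, at -0.86 ± 0.09 and -0.83 ± 0.09. Dusp5 was lower in females, at -0.39 ± 0.13, and at -0.24 ± 0.13 in males without passing.

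Some of these calls rested on single libraries. In females the calls of Atf3 (without APC 1, FIP 1 or FIP 2), Dusp5 (APC 1, FIP 2 or FIP 3), Klf2 (APC 1, APC 2 or FIP 2), Nr4a1 (APC 1 or FIP 3) and Rhob (APC 1, FIP 2 or FIP 3) ended when the library named was left out. In males those of Egr3 (APC 2, FIP 1 or FIP 2) and Fos (APC 2 or FIP 1) did.

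The NR4A receptors, orphan nuclear receptors that act without a known ligand and are controlled mainly by their own transcription, differed between the sexes in this comparison. Nr4a1 read 3393, 3398 and 3529.7 in male APC and 13814, 15213 and 14602 in male FIP, 4.22 times as high in FIP, with a log2 fold change of 2.08 ± 0.12 (limma adjusted p 5.93e-13). In females Nr4a1 read 7904, 12201 and 12880.5 in APC and 13327, 12983 and 16052 in FIP, at 0.39 ± 0.12. Male APC cells were the gonadal group that stood apart, at about the level of inguinal cells.
Nr4a2 read 84.8, 83.5 and 80.3 in male APC against 313, 346 and 331 in male FIP, and 238, 371 and 481 in female APC against 354, 338 and 400.1 in female FIP. Nr4a3 read 428, 269 and 387 and 2076, 2346 and 1983 in the male groups and 619, 749 and 805 and 626, 567 and 684 in the female groups. The male groups did not overlap for either gene, whereas female APC and FIP overlapped for both.
The log2 fold changes in males were 1.98 ± 0.16 for Nr4a2 and 2.58 ± 0.19 for Nr4a3, and in females 0.06 ± 0.16 and -0.21 ± 0.19, which did not pass. The test of the difference, male minus female, gave 1.69 ± 0.17 for Nr4a1, 1.92 ± 0.22 for Nr4a2 and 2.79 ± 0.27 for Nr4a3, with limma adjusted p of 3.77e-07, 1.9e-06 and 1.1e-07.

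The sexes differed in FIP over APC for 10 of the 33, 9 of them with a larger value in males, where 10.9% of all genes were called in either direction. Beside the 3 NR4A genes these were Fosl2, Junb, Zfp36, Ier3, Btg2 and Gadd45b, and Hspa1a with a smaller value in males. Markers of other cell types also had larger values in males, 5 of 7 mesothelial, 4 of 8 endothelial, 3 of 12 macrophage, 2 of 8 mural, 2 of 5 adipocyte and 1 of 7 epithelial, and none of these a smaller one. Their part was not tested. Ier3 was at 0.97 ± 0.09 in males and 0.18 ± 0.09 in females, and Gadd45b at 0.04 ± 0.07 and -0.56 ± 0.07. The call for Zfp36 ended on leaving out any 1 of 10 libraries and that for Junb without female FIP 2. With quantile normalization 6 had a larger and 2 a smaller value in males, and with DESeq2 10 and 3.

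Across all 8 groups, Nr4a1 was lowest in male DPP4_neg (2175 ± 57.1, SD, n = 3) and female DPP4_neg (2597 ± 165), then male APC (3440.2 ± 77.5), female DPP4_pos (4046 ± 486) and male DPP4_pos (4774 ± 408). It was highest in female APC (10995 ± 2698), female FIP (14120.5 ± 1681) and male FIP (14543 ± 702). Nr4a2 had another order, lowest in male APC (82.9 ± 2.29) and highest in female FIP (364 ± 32.3) and female APC (363 ± 122), which overlapped. Nr4a3 was lowest in male DPP4_neg (205 ± 67.2) and 10.4 times as high in male FIP (2135 ± 188). Male DPP4_pos (2102 ± 235) overlapped with male FIP, and these groups overlapped with no other. Female APC and female FIP came next, at 724 ± 95.4 and 626 ± 58.3.

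In the inguinal depot, the 33 were called in both directions between DPP4_pos and DPP4_neg cells. In the fit reported, only the count lower in males was far above the share of all genes, and the count higher in males was below it. In females 11 of the 33 were higher and 11 lower in DPP4_pos cells, against 22.7% and 27.2% of all genes. This split depended on scaling, since quantile normalization gave 5 higher and 17 lower. Here and elsewhere the shares of all genes are those of the fit reported, and none is given under quantile normalization. In males 6 were higher and 22 lower, against 25.3% and 25.4%. Lower in both sexes were Jun, Egr2, Egr3, Dusp5, Dusp6, Ier2, Gadd45b, Rhob, Hspa1a and Hspa1b, and higher in both were Fosl1, Fosl2, Nr4a1, Socs3 and Ier3. How many of all genes were called in both sexes was not counted, and can be at most 25.4% lower and 22.7% higher. Epithelial markers, high in female DPP4_neg, were called lower in female DPP4_pos for 7 of 7, and in males 0 were lower and 2 higher. Macrophage markers were lower in DPP4_pos for 12 of 12 in females and 6 of 12 in males, mural markers for 5 and 7 of 8 (1 and 0 higher), and endothelial markers for 7 and 1 of 8 (1 and 1 higher). The summed endothelial level was nonetheless higher in female DPP4_pos, at 1795 to 1861 against 796 to 993 in female DPP4_neg. Mesothelial markers were lower for 4 and 1 of 7 and adipocyte markers for 4 and 2 of 5, and none was higher. The part of those cells was not tested.

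Fosl1, lowest in gonadal cells, read 862, 712 and 464 in female DPP4_neg and 1309, 1324 and 1222 in female DPP4_pos, and 891, 1099.8 and 1168 and 1854, 1892 and 1896 in the male groups. Its log2 fold change was 0.96 ± 0.15 in females and 0.85 ± 0.15 in males, without overlap in either sex. Egr2 was lower in DPP4_pos, at -1.59 ± 0.12 and -1.40 ± 0.12, and Rhob, at -0.85 ± 0.11 and -1.16 ± 0.11. Dusp5 was lower, at -1.37 ± 0.13 and -0.99 ± 0.13, and Dusp6, at -1.75 ± 0.13 and -1.16 ± 0.13. Dusp5 and Dusp6 were thus lower where the surface marker was present, in both sexes. Dusp1, which acts on ERK too, was called higher in females and lower in males, and its female call depended on scaling.

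In males, Fos read 11494, 10697 and 11154 in DPP4_neg and 4722, 3705 and 3138 in DPP4_pos, at -1.55 ± 0.15 (limma adjusted p 4.52e-09). In females it read 11700.2, 11103 and 19611 in DPP4_neg and 9733, 11119 and 11641 in DPP4_pos, overlapping, at -0.34 ± 0.15 (limma adjusted p 0.0702). Male DPP4_pos cells had the lowest Fos of the 8 groups. Jun was at -1.84 ± 0.14 in males and -0.41 ± 0.14 in females, and Egr1 at -1.57 ± 0.11 in males and -0.09 ± 0.11 in females, the last not passing.
Nr4a3 went the other way in males. Its values were 129.9, 227 and 259 in male DPP4_neg and 2174, 1839 and 2293 in male DPP4_pos, 10.6 times as high, at 3.40 ± 0.19 (limma adjusted p 7.57e-14). In females the values were 334, 302 and 343 and 306, 276 and 423, overlapping, at 0.02 ± 0.19.

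The sexes differed in DPP4_pos over DPP4_neg for 21 of the 33, against 29.2% of all genes. In males 15 were smaller and 6 larger, against 12.7% and 16.5% of all genes, so the larger ones lay near the background. Smaller in males were Fos, Fosb, Jun, Jund, Atf3, Egr1, Egr3, Klf2, Klf4, Dusp1, Zfp36, Ier2, Ier5, Btg1 and Dnajb1. Larger were Fosl2, the 3 NR4A genes, Dusp6 and Ier3. Among markers, 6 of 7 epithelial, 4 of 7 mesothelial, 3 of 12 macrophage, 3 of 8 endothelial and 1 of 8 mural had larger values in males, and 1 endothelial and 2 mural smaller ones. Their part was not tested. Of the 33, Nr4a3 differed most, by 3.39 ± 0.27, and Egr1 by -1.49 ± 0.15, Jun by -1.43 ± 0.20 and Fosb by -1.37 ± 0.15. Fosb, Jund, Atf3, Dusp1 and Ier5 were called in opposite directions, higher in DPP4_pos in females and lower in males. With quantile normalization Dusp1 and Ier5 in females were at -0.04 and -0.13 and no longer called, and the female calls of Jund and Atf3 were lost too, so of these 5 only Fosb kept both calls there.
In females the calls of Dusp1 (without DPP4_neg 2 or DPP4_pos 2), Ier3 (DPP4_neg 2 or DPP4_pos 3) and Jun (DPP4_neg 3 or DPP4_pos 1) ended when the library named was left out. The differences for Dusp6 (female DPP4_neg 3 or male DPP4_pos 1) and Egr3 (male DPP4_neg 3) did too, and that for Nr4a1 did on leaving out any 1 of 6 libraries.

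**Figure D4:**
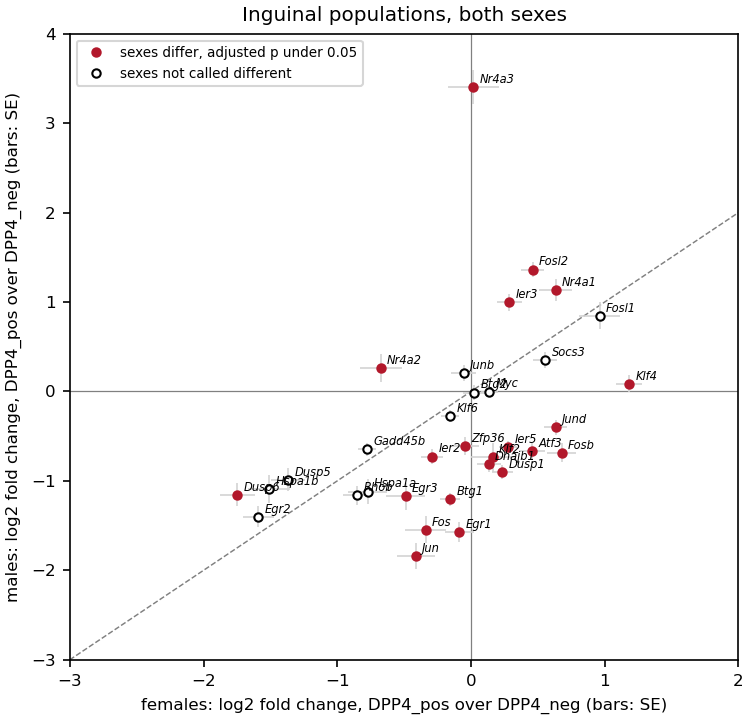
Log2 fold change of DPP4_pos over DPP4_neg in males (vertical) against females (horizontal) for the 33 genes, with SE bars; the dashed line marks equal values and filled points mark genes whose sexes differ at an adjusted p under 0.05. Nr4a3 stands alone at 3.40 in males and 0.02 in females, and Fos, Jun and Egr1 lie well below the line.

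Males and females were compared within each population. In APC, 9 of the 33 were higher and 13 lower in males, against 22.4% and 22.2% of all genes, and quantile normalization turned this to 11 and 10. In FIP 14 were higher and 8 lower, against 18.3% and 19.1%. In DPP4_neg 16 were higher and 10 lower, against 27.1% and 30.5%, or 11 and 14 with quantile normalization. In DPP4_pos 12 were higher and 16 lower, against 27.1% and 25.7%. The median log2 fold change was -0.10 in APC, 0.05 in FIP, 0.20 in DPP4_neg and -0.19 in DPP4_pos, against -0.03 to 0.00 for all genes, so the 33 as a group were not shifted alike between the sexes.

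In all 4 populations Ier3, Btg1, Gadd45b, Hspa1a and Hspa1b were higher in males, as were 5.88% of all genes. Atf3, Egr2, Dusp5 and Btg2 were lower in males in all 4, as were 4.96%. These 4 comparisons share no library. Without the female DPP4_neg libraries only 3 comparisons remain, over which the same 5 were higher and 5 were lower, with Fos added. The shares of all genes over these 3 were not counted either. They can lie between 5.88% and 18.3% for higher and between 4.96% and 19.1% for lower. Btg1 was the least secure: its call in FIP ended without female FIP 2 or 3 or male FIP 2 or 3, its call in DPP4_pos without female DPP4_pos 1 or male DPP4_pos 3, and quantile normalization took it and Gadd45b off the list. The call of Atf3 in DPP4_neg ended without female DPP4_neg 3 or male DPP4_neg 2 or 3.

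Markers of other cell types moved with sex too. In FIP 10 of 12 macrophage, 6 of 8 endothelial, 5 of 8 mural, 5 of 5 adipocyte, 2 of 7 mesothelial and 2 of 7 epithelial markers were higher in males and none of these was lower. In APC 2 macrophage, 3 endothelial, 2 mural, 1 adipocyte and 1 epithelial markers were higher, and 2 mural, 5 mesothelial, 2 adipocyte and 3 epithelial ones lower. In DPP4_neg 2 mural and 3 adipocyte markers were higher, and 5 macrophage, 6 endothelial, 3 mural, 3 mesothelial and all 7 epithelial ones lower. In DPP4_pos 2 macrophage, 1 endothelial, 1 mural, 1 mesothelial, 5 adipocyte and 1 epithelial markers were higher, and 4, 1, 3, 3, 0 and 4 lower. The part of those cells in the differences between sexes was not tested.

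**Figure D5:**
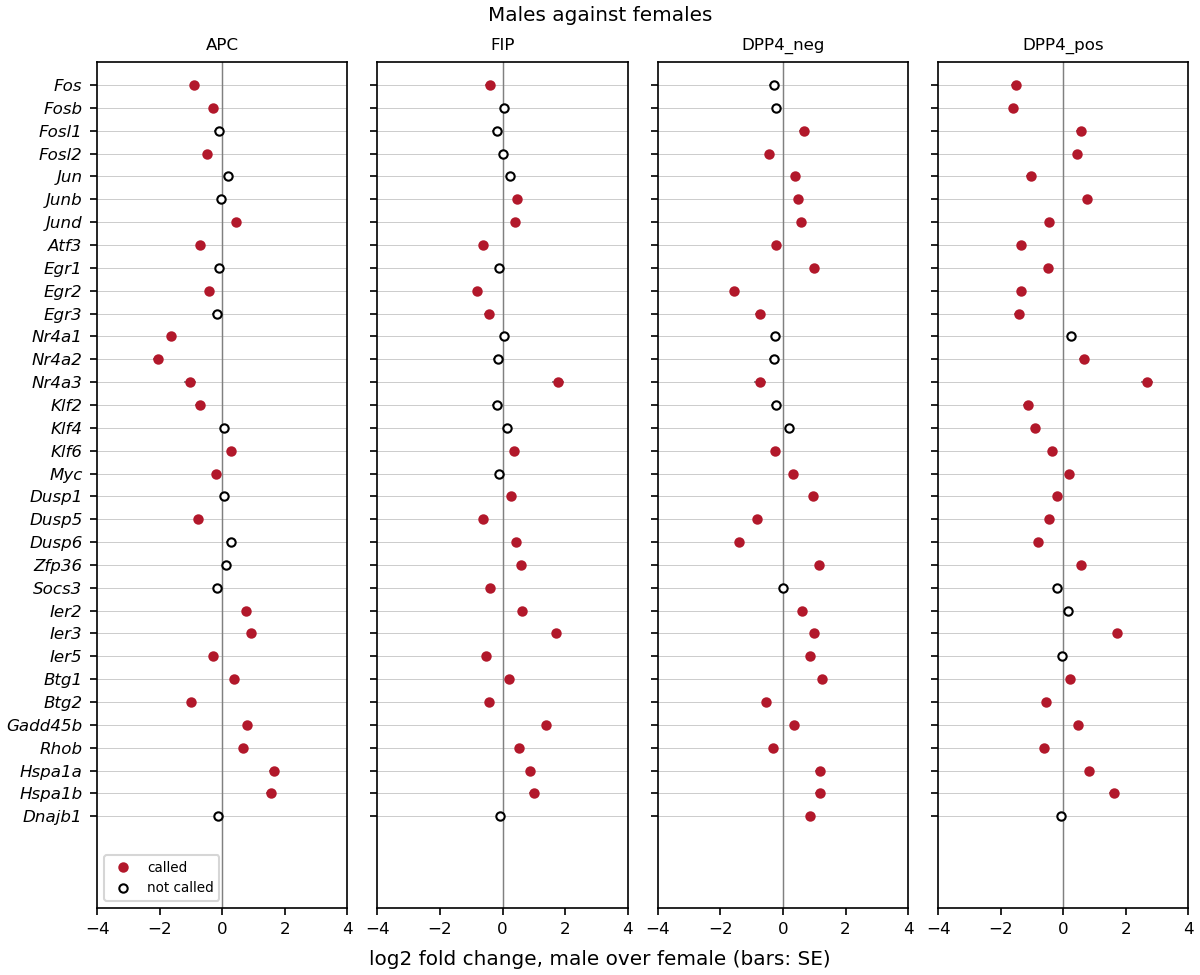
Log2 fold changes of the 33 genes, male over female, in the 4 populations; points are estimates with SE bars, filled where called at an adjusted p under 0.05. Ier3, Btg1, Gadd45b, Hspa1a and Hspa1b lie filled to the right in all 4 panels and Atf3, Egr2, Dusp5 and Btg2 filled to the left.

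Hspa1b read 1009.8, 929.9 and 962 in female and 2838, 2939.7 and 2844 in male APC, 1370.1, 1288 and 1085 and 2412, 2445 and 2553 in FIP, without overlap. In DPP4_neg it read 4693, 3366 and 5543 in females and 11156, 9309 and 10096 in males, and in DPP4_pos 1926, 1097 and 1795 and 4593, 5474 and 4267, again without overlap. The male excess on the log2 scale was 1.57 ± 0.16, 0.99 ± 0.16, 1.19 ± 0.16 and 1.61 ± 0.16 in APC, FIP, DPP4_neg and DPP4_pos, and that of Hspa1a was 1.64 ± 0.14, 0.88 ± 0.14, 1.17 ± 0.14 and 0.82 ± 0.14. Dnajb1, the partner chaperone, was higher in males in DPP4_neg alone of the 4, at 0.87 ± 0.09, and between -0.12 and -0.07 in the rest, where it did not pass.

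Ier3 was higher in males by 0.91 ± 0.09, 1.69 ± 0.09, 1.01 ± 0.09 and 1.71 ± 0.09, in the same order of populations. Its highest group was male DPP4_pos, at 5103, 4978 and 5757, and its lowest female APC, at 813, 811 and 1009. Gadd45b was higher by 0.79 ± 0.07, 1.39 ± 0.07, 0.34 ± 0.07 and 0.47 ± 0.07. Egr2 was lower in males, at -0.42 ± 0.12, -0.82 ± 0.12, -1.55 ± 0.12 and -1.36 ± 0.12, and Btg2, at -0.98 ± 0.08, -0.44 ± 0.08, -0.53 ± 0.08 and -0.56 ± 0.08. The sex difference of Egr2 was larger in DPP4_neg than in APC, by 1.14 ± 0.16, and larger in DPP4_pos than in FIP, by 0.54 ± 0.16.

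Fos was lower in males in APC, at -0.89 ± 0.15, in FIP, at -0.40 ± 0.15, and in DPP4_pos, at -1.51 ± 0.15, and was at -0.30 ± 0.15 in DPP4_neg without passing (limma adjusted p 0.1). The FIP call of Fos ended on leaving out any 1 of 7 libraries and with the replicate number as a block. Fosb was lower in DPP4_pos, at -1.60 ± 0.11, and in APC, at -0.30 ± 0.11, the second call lost without female APC 1 or male APC 2 or 3 and its value 0.18 with quantile normalization. Dusp6 was lower in males in DPP4_neg, at -1.41 ± 0.13, and DPP4_pos, at -0.82 ± 0.13, and higher in FIP, at 0.43 ± 0.13. Nr4a1, Nr4a2 and Nr4a3 were lower in males in APC, at -1.64 ± 0.12, -2.06 ± 0.16 and -1.02 ± 0.19, while Nr4a3 was higher in males in FIP, at 1.77 ± 0.19, and in DPP4_pos, at 2.66 ± 0.19, and lower in DPP4_neg, at -0.72 ± 0.19.
Other calls between the sexes that ended without 1 library were those of Myc in APC (female APC 1, male APC 1 or male APC 3), Jun (female DPP4_neg 1 or 2 or male DPP4_neg 3) and Rhob (female DPP4_neg 3 or male DPP4_neg 2) in DPP4_neg, Dusp1 (any 1 of 18 libraries) and Myc (male DPP4_pos 3) in DPP4_pos, and Dusp1 (male FIP 3) and Egr3 (female FIP 1 or 2 or male FIP 3) in FIP.

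The size of the depot difference also depended on sex. For APC over DPP4_neg, 20 of the 33 differed between the sexes, against 43.1% of all genes, with 6 larger and 14 smaller in males. Of all genes 22.7% were larger and 20.4% smaller, so the 6 larger were not above the background. The split of the 33 turned with scaling, to 13 larger and 8 smaller with quantile normalization, which moved the median of all genes in female APC over DPP4_neg by 0.13. For FIP over DPP4_pos, 23 differed, against 35.1% of all genes, with 16 larger and 7 smaller in males, or 16 and 2 with quantile normalization. Of all genes 15.9% were larger and 19.2% smaller there, so the 7 smaller lay near the background. Markers with larger values in males were, for APC over DPP4_neg and FIP over DPP4_pos, 6 and 7 of 8 endothelial, 6 and 5 of 7 epithelial, 5 and 8 of 12 macrophage, 3 and 5 of 8 mural and 3 and 3 of 7 mesothelial. Smaller values in males were called for 2 and 1 adipocyte, 2 and 0 mesothelial, 1 and 0 mural and 0 and 1 macrophage markers, and the part of all these was not tested. Nr4a2 was higher in female APC than in female DPP4_neg, at 0.99 ± 0.16, and lower in male APC than in male DPP4_neg, at -0.79 ± 0.16, a difference of -1.78 ± 0.22. Dusp6 had a depot difference of 2.59 ± 0.13 in males and 0.91 ± 0.13 in females, a difference of 1.68 ± 0.18. In FIP over DPP4_pos the largest differences were those of Fosb, 1.64 ± 0.15, and Jun, 1.29 ± 0.20, for which male DPP4_pos cells were the lowest of the 8 groups. Calls of these differences that ended without 1 library were those of Egr3 and Fos (any 1 of 6 libraries each) for APC over DPP4_neg, and Egr1 (any 1 of 15), Hspa1b (any 1 of 6), Egr2 and Myc (male DPP4_pos 3) for FIP over DPP4_pos.

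The wider programmes were read from 3 further lists. Of 42 other immediate early genes, 22 were higher and 10 lower in gonadal cells in female APC over DPP4_neg and 18 and 16 in males, and in FIP over DPP4_pos 24 and 13 in females and 23 and 10 in males. In that order 52.4%, 42.9%, 57.1% and 54.8% of the 42 were thus higher and 23.8%, 38.1%, 31.0% and 23.8% lower, where 27.0%, 33.3%, 22.2% and 32.8% of all genes were higher and 32.4%, 33.1%, 22.7% and 32.4% lower. In male APC over DPP4_neg both shares thus lay near the background. Their medians, 0.30, 0.15, 0.35 and 0.45, were smaller than those of the 33. Among them Ptgs2, the inducible cyclooxygenase, averaged 15128 in male DPP4_neg and 54162 in male DPP4_pos against 2135 in male APC and 15996 in male FIP. It was thus lower in gonadal cells of males, at -2.82 ± 0.14 and -1.76 ± 0.14, and higher in FIP than in APC, at 2.90 ± 0.14. In females it was at 0.29 ± 0.14 in APC over DPP4_neg, which did not pass, lower in FIP than in DPP4_pos, at -0.80 ± 0.14, and higher in FIP than in APC, at 0.59 ± 0.14. The depot differences, male minus female, were -3.10 ± 0.20 and -0.96 ± 0.20. Arc, known as a neuronal immediate early gene, was lower in DPP4_pos than in DPP4_neg cells, at -2.18 ± 0.16 in females and -4.25 ± 0.16 in males, as was Spry4, an inhibitor of receptor tyrosine kinase signalling, at -2.28 ± 0.16 and -3.85 ± 0.16. Irf1, an interferon regulatory factor, was higher in gonadal cells in all 4 comparisons, from 1.54 to 2.20, and Dusp10, a phosphatase of p38 and JNK, was lower in gonadal cells in all 4 comparisons, from -1.94 to -2.29.

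Of 17 other chaperones driven by HSF1, 3, 2, 0 and 2 were higher and 9, 11, 10 and 12 lower in gonadal cells, in the order female APC, male APC, female FIP and male FIP over their inguinal counterparts. The shares higher were 17.6%, 11.8%, 0% and 11.8%, beside 27.0%, 33.3%, 22.2% and 32.8% of all genes. The shares lower were 52.9%, 64.7%, 58.8% and 70.6%, beside the 32.4%, 33.1%, 22.7% and 32.4% of all genes. Hsph1, a nucleotide exchange factor of the chaperones, was lower in male APC than in male DPP4_neg, at -2.43 ± 0.12, and in male FIP than in male DPP4_pos, at -2.09 ± 0.12, and in females at -0.88 ± 0.12 and -0.30 ± 0.12. Stip1, which links chaperones, was lower in all 4, from -1.34 to -0.56. Between the sexes 4 of the 17 were higher in males in APC, 4 in FIP, 11 in DPP4_neg and 9 in DPP4_pos, and 11, 10, 3 and 5 were lower, so they did not all share the male excess of Hspa1a and Hspa1b. The shares higher were 23.5%, 23.5%, 64.7% and 52.9% beside 22.4%, 18.3%, 27.1% and 27.1% of all genes, near the background in APC and FIP, and the shares lower 64.7%, 58.8%, 17.6% and 29.4% beside 22.2%, 19.1%, 30.5% and 25.7%. Hspb1, a small heat shock protein, was higher in males in all 4, from 0.85 to 2.02.

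Of 21 kinases and factors that act upstream of these genes, 6, 5, 5 and 4 were higher and 12, 10, 10 and 10 lower in gonadal cells in the same order. The shares higher, 28.6%, 23.8%, 23.8% and 19.0%, lay near or below those of all genes (27.0%, 33.3%, 22.2% and 32.8%). The shares lower were 57.1%, 47.6%, 47.6% and 47.6%, beside 32.4%, 33.1%, 22.7% and 32.4% of all genes. Nfkb1, a subunit of NF-kB, was lower in gonadal cells in all 4, at -1.61 ± 0.08, -2.54 ± 0.08, -1.79 ± 0.08 and -3.01 ± 0.08. Its mean was 24530.0 normalized counts in male DPP4_pos and 3046 in male FIP. Hsf2, a relative of HSF1, was lower in gonadal cells in all 4 too, at -0.53 ± 0.09, -1.31 ± 0.09, -0.79 ± 0.09 and -1.57 ± 0.09. Crem, a CRE-binding factor, was lower in male than in female APC, at -1.34 ± 0.16, and DPP4_neg, at -0.52 ± 0.16, higher in male than in female DPP4_pos, at 0.99 ± 0.16, and at 0.07 ± 0.16 in FIP without passing.

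Libraries of 1 group also differed in these genes. Replicate 3 of female DPP4_neg had 31 of the 33 above its group mean, by a median of 0.16 on the log2 scale, with Fos highest, at 0.52, and Fosl1 lowest, at -0.50. Male FIP 1 had 0 of the 33 above its group mean and male FIP 3 had 30, with medians of -0.05 and 0.04. Of all genes tested, 46.8% to 54.1% lay above the group mean in each library. Epithelial and mesothelial markers were highest in replicate 2 of female DPP4_neg and not in replicate 3. Macrophage markers were highest of all 24 libraries in replicate 3, where they summed to 1519, against 1030.4 and 725 in replicates 1 and 2. The part of those cells in its deviation was not tested.
Over the 24 libraries, deviations from the group mean correlated between pairs of the 33 with a median r of 0.24, and 75.6% of pairs were positive, against 0.00 and 50.2% for pairs among 2878 sampled genes. Without replicate 3 of female DPP4_neg the median was 0.13, with 63.4% positive. These correlations are descriptions over libraries that share groups and depth. Fos correlated most with Jun (0.93), Btg2 (0.85) and Zfp36 (0.76), and Fosl1 was at -0.71. Of genes outside the list with a mean of at least 100, those most like Fos by this measure were Naa80 (0.87), Arid4a (0.86), Txnip (0.85), Fbln7 (0.83) and Mylk (0.82), over 24 libraries in 8 groups. None of these correlations with Fos was computed without replicate 3 of female DPP4_neg, so how far they rest on it is not known. In that library Fos read 19611 and Jun 19530, against at most 11700 and 11576 in replicates 1 and 2.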

How the data were processed

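RNA of sorted PDGFRb+ adipose cells was sequenced in 24 libraries, 3 in each of 8 groups. The deposited values are a signal, normalized counts whose steps are those of whole reads divided by 1 size factor per library. The submitters' processing notes name featureCounts (1.4.6), HISAT2 (2.0.1), DESeq2 (1.6.3), Trim Galore (0.4.1) and the builds GRCm38 and mm10, and neither their roles, the annotation nor the strand setting is given in the sources used here. Whole reads were recovered from the steps between values, within 0.01 read for 100.0% of values in every library, giving 9152470 to 18221692 reads. The 958 rows without a symbol, at most 0.0765% of reads, were left out, and the 10 most abundant genes took 11.1% to 19.5%.

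Genes that reached 10 in 3 or more libraries were tested with limma 3.58.1 (R 4.3.3, trend), on log2(value + 1), over all 24 libraries with 8 group means, and p-values were adjusted over 14387 genes by Benjamini-Hochberg. Fold changes on this scale understate the change of low genes. The 12 comparisons of groups share groups with each other, apart from those said to share no library. Differences between sexes are the male minus the female log2 fold change. Alternatives were pseudocount 8, no filter, a mean of at least 50, quantile normalization, a fit to only the groups compared, leaving out each library, a replicate block, and edgeR 4.0.16 and DESeq2 1.42.0 on recovered reads. On simulated data the test made more false calls than its nominal rate among genes with few reads in some groups, and close to the nominal rate among genes with at least 40 reads in each group. Replicate libraries differed by more than sampling noise in every pair, so none was taken as a repeat deposit.

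Same-numbered libraries deviated together, with every correlation over 0.1, in 1 of 12 pairs of groups (female DPP4_neg and DPP4_pos, 0.129, 0.202 and 0.104), and over all pairs the correlations ran from -0.177 to 0.202. There, the fit with the replicate number as a block made the same 22 calls of the 33, 11 in each direction. The 33 genes and the lists were chosen with earlier results of these data known. Any of the 33 may be named, of each further list up to 4 genes called in a comparison, ranked by size of change, and up to 5 genes most like Fos with a mean of at least 100.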

Additional observations from a re-analysis of the deposited data

Results flagged for a closer look

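Each value here is the log2 fold change in males minus that in females, for a gene that passed limma's test of that difference with an adjusted p under 0.05. Groups of 3 libraries were too small to test for single libraries that stand apart.

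In FIP over APC the value was larger in males for Nr4a3 (2.79), Nr4a2 (1.92), Nr4a1 (1.69), Ier3 (0.78), Gadd45b (0.60), Btg2 (0.54), Fosl2 (0.51), Junb (0.49) and Zfp36 (0.46). It was smaller in males for Hspa1a (-0.76).

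In DPP4_pos over DPP4_neg the value was larger in males for Nr4a3 (3.39), Nr4a2 (0.94), Fosl2 (0.90), Ier3 (0.71), Dusp6 (0.59) and Nr4a1 (0.50). It was smaller in males for Egr1 (-1.49), Jun (-1.43), Fosb (-1.37), Fos (-1.21), Dusp1 (-1.14), Atf3 (-1.13), Klf4 (-1.10), Btg1 (-1.05), Jund (-1.03), Dnajb1 (-0.95), Klf2 (-0.90), Ier5 (-0.90), Egr3 (-0.68), Zfp36 (-0.57) and Ier2 (-0.44).

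In gonadal APC over inguinal DPP4_neg the value was larger in males for Dusp6 (1.68), Egr2 (1.14), Rhob (0.96), Egr3 (0.56), Klf6 (0.51) and Gadd45b (0.45). It was smaller in males for Nr4a2 (-1.78), Nr4a1 (-1.39), Ier5 (-1.15), Egr1 (-1.09), Zfp36 (-1.01), Dnajb1 (-0.99), Dusp1 (-0.88), Btg1 (-0.87), Fosl1 (-0.77), Fos (-0.59), Junb (-0.53), Myc (-0.51), Atf3 (-0.47) and Btg2 (-0.46).

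In gonadal FIP over inguinal DPP4_pos the value was larger in males for Fosb (1.64), Jun (1.29), Dusp6 (1.25), Rhob (1.15), Fos (1.11), Klf4 (1.05), Egr3 (0.98), Klf2 (0.95), Gadd45b (0.91), Jund (0.85), Atf3 (0.75), Klf6 (0.71), Egr2 (0.54), Ier2 (0.46), Dusp1 (0.45) and Egr1 (0.40). It was smaller in males for Nr4a3 (-0.89), Nr4a2 (-0.80), Fosl1 (-0.74), Hspa1b (-0.62), Ier5 (-0.49), Fosl2 (-0.43) and Myc (-0.28).

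The largest of these were Nr4a3 in both comparisons within a depot. Dusp6 differed in 3 of the 4 comparisons, always with a larger value in males, while Fosl1, Nr4a2, Ier5 and Myc had smaller values in males in both depot comparisons. With quantile normalization the differences of Junb and Atf3 between APC and DPP4_neg changed sign, at 0.24 and 0.03. Each comparison within a depot shares libraries with both comparisons between depots.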

How the results depend on the processing

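Of 528 values (33 genes in 16 comparisons), 390 were called, 329 of them in every setting run, and 57 of the 138 not called were called in some setting. Relative to the values reported, pseudocount 8 changed no call, DESeq2 added 14 and lost 0, edgeR added 7 and lost 5, a mean of at least 50 added 3, no filter lost 11, and a fit to only the groups compared added 10 and lost 14. Quantile normalization added 32 and lost 39 calls, and counts under it are given without the shares of all genes. Among values called with it or in the fit reported, it turned the sign of 12: Dusp1 (-0.0409) and Ier5 (-0.13) in female DPP4_pos over DPP4_neg, Myc in male FIP over DPP4_pos (0.29), Fosb in males over females in APC (0.18), Myc (-0.0648) and Socs3 (-0.31) in males over females in DPP4_neg, and, in the sex difference of APC over DPP4_neg, Fosb (0.72), Fosl2 (0.39), Junb (0.24), Jund (0.70), Atf3 (0.0320) and Socs3 (0.40). The cause was not tested. The count higher in males in all 4 populations fell to 3 with quantile normalization.

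Leaving out 1 library at a time gave 12672 values, of which 9360 are called in the fit to all libraries, and lost 132 and added 51 calls. The number of the 33 called then ran from 19 to 25 (females) and 23 to 25 (males) in FIP over APC, 21 to 25 and 28 to 29 in DPP4_pos over DPP4_neg, 31 to 31 and 30 to 32 in APC over DPP4_neg, and 26 to 27 and 30 to 31 in FIP over DPP4_pos. Between the sexes it ran from 20 to 23 in APC, 19 to 23 in FIP, 24 to 28 in DPP4_neg and 25 to 29 in DPP4_pos, and for the sex differences from 8 to 11, 19 to 22, 18 to 22 and 20 to 23 in the order FIP over APC, DPP4_pos over DPP4_neg, APC over DPP4_neg and FIP over DPP4_pos. The genes with all gonadal libraries below all inguinal ones rose from 0 to 1 without replicate 3 of female DPP4_neg, and to 1 without all 3 libraries of that group. The median correlation among the 33 within groups, 0.244, was 0.298 with quantile normalization, 0.243 with pseudocount 8, 0.126 without replicate 3 of female DPP4_neg and 0.274 without replicate 1 of female APC, the last 2 chosen after the data were seen.

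With the replicate number as a block, 525 of 528 values kept their call and 3 lost it: Dusp1 between sexes in DPP4_pos, Fos between sexes in FIP, and the sex difference of Egr1 in FIP over DPP4_pos. The counts became 27 of 28, 21 of 22 and 22 of 23. Depth was high enough that every one of the 33 had at least 41.9 normalized counts in each library.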
